A study of Homo sapiens with 12 samples.

Results

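Molecular chaperones of the HSP, DNAJ and CCT families were followed in a human colon adenocarcinoma cell line, HT29, exposed to methotrexate. A gene was included when a probe set was assigned to it alone and its symbol began with HSPA, HSPB, HSPD, HSPE, HSPH, HSP90, DNAJ or CCT. Pseudogenes, HSPBP1 and HSPBAP1 were left out. This gave 76 genes of the 18377 measured, read by 79 of 28869 probe sets. The 12 arrays formed 4 groups of 3: untreated control cells, and cells kept for 8, 24 or 48 h with 70 nM methotrexate, an antifolate that blocks dihydrofolate reductase. All groups were the same line in the same medium with serum, and the titles call the replicates biological. The control was taken as 0 h and no time-matched untreated arrays entered, so drug and time in culture cannot be told apart in any difference from control. The values are log2 ratios, taken gene by gene against the control median, so differences between groups are shown and levels of different genes cannot be compared.

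Chaperones bind unfolded or partly folded proteins and help them fold, assemble, cross membranes or be degraded. HSP70 proteins bind and release short exposed stretches in an ATP cycle that DNAJ (HSP40) proteins start and HSP110 proteins help reset, HSP90 acts late on kinases and receptors, and the chaperonins CCT and HSP60 enclose a client in a cage. Small heat shock proteins hold unfolded clients without ATP. Many cytosolic members are induced by heat shock factor 1 (HSF1) through heat shock elements, and those of the endoplasmic reticulum (ER) by the unfolded protein response through ER stress elements.

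The promoters of 6 members are printed because the values below turn on these genes, or, for HSPA5, because a well known target of the unfolded protein response was not called. Each is the 250 bases before a transcription start in RefSeq (GRCh38.p14), 5′ to 3′ on the gene's strand. Capitals mark heat shock repeats, matched as GAANNTTC or TTCNNGAA on both strands, or the fixed letters of an ER stress element, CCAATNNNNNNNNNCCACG on either strand. HSPD1 and HSPE1 lie head to head on opposite strands.
HSP90AA1, chr14:102087045-102087294, minus strand: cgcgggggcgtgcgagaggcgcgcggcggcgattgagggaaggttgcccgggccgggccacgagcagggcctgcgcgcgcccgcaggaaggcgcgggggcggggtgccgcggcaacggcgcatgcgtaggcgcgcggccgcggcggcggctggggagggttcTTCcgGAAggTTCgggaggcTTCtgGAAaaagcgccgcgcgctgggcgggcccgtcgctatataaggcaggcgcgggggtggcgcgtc
HSPD1, chr2:197499841-197500090, minus strand: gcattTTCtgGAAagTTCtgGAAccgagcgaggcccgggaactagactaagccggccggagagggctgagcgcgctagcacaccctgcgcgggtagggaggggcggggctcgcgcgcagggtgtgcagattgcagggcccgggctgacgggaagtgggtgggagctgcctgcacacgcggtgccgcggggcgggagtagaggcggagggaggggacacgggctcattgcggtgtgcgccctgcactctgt
HSPE1, chr2:197500129-197500378, plus strand: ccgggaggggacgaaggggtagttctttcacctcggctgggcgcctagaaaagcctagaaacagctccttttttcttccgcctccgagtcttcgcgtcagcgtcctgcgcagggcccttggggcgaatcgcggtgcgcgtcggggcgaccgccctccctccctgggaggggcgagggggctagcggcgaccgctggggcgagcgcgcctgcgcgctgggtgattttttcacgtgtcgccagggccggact
HSPB8, chr12:119178681-119178930, plus strand: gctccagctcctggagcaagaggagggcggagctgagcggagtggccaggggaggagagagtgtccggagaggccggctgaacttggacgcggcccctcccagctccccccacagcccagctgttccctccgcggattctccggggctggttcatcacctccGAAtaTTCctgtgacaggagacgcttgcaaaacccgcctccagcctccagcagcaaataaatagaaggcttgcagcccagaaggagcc
DNAJB9, chr7:108569624-108569873, plus strand: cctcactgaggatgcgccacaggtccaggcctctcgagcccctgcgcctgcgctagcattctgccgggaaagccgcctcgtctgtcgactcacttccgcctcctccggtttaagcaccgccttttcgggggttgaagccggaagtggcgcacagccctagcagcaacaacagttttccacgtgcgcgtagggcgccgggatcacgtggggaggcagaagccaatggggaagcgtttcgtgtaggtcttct
HSPA5, chr9:125241344-125241593, minus strand: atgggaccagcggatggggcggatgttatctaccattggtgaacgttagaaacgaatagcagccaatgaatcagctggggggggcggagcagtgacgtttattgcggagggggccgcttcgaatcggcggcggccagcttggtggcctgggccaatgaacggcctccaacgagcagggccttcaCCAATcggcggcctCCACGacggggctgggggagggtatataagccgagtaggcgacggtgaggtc

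Of the 76 members, 69 had a promoter in the RefSeq table. A run of 3 heat shock repeats (GAANNTTCNNGAA or TTCNNGAANNTTC) lay in the windows of 6 members (8.7%), namely HSPD1, HSP90AA1, HSP90AB1, HSPA8, HSPA6 and DNAJB6, against 0.557% of all 27305 genes with a promoter in the table. In HSP90AA1 the run began 88 bases before the start. HSP90AA1, HSPD1 and HSP90AB1 also had other listed starts whose windows held none. At least 2 repeats, a pattern that every run of 3 also contains, were found in 20 members (29%) against 14% of all genes. Neither pattern was found in the window of HSPH1, the member with the largest rise at 8 h, which is not printed. The window of HSPE1 also held neither, but this rests on the 250-base limit. On the chromosome the printed HSPD1 window ends before the HSPE1 window begins. The run in HSPD1 therefore also lies upstream of the HSPE1 start, outside the HSPE1 window. The ER stress element was found in HSPA5, 66 bases before the start, and in HSP90B1, against 0.0916% of all genes. These are matches of letters, and binding was not measured.

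At 8 h the 7 ring subunits of the chaperonin CCT, HSP110 and HSP90 genes and the mitochondrial HSPD1 and HSPE1 were higher than control, and the ER genes DNAJB9 and HSPA13 were lower. At 24 and 48 h the largest rise of a member was that of the small heat shock protein HSPB8. At 8 h against control, 24 of 76 members rose and 8 fell, or 31.6% and 10.5%, where 12.1% of all genes rose and 12% fell (24.2% called in either direction). The median member difference was 0.07 on the log2 scale, against 0.02 over all genes. At 24 h 13 members rose and 5 fell, where 8.69% and 8.02% of all genes did (16.7% in all). At 48 h 14 rose and 20 fell, where 13% and 12.3% of all genes did (25.3% in all). Called means an adjusted p under 0.05 in limma, after Benjamini-Hochberg adjustment over all 18377 genes.

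The treated groups were also compared directly. Between 8 and 24 h, 10 members rose and 18 fell, where 9.99% and 9.4% of all genes did (19.4% in all). Between 24 and 48 h 5 rose and 15 fell, where 5.26% and 4.86% of all genes did (10.1% in all). That count of 20 called members was 13 without 24 h replicate 1, where the count over all genes went from 1860 to 1104. At 48 h against 8 h 12 rose and 25 fell, where 15.3% and 14.4% of all genes did (29.7% in all). Among the 4 groups 45 members (59.2%) differed by limma's moderated F test, against 38.8% of all genes.

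**Figure D1:**
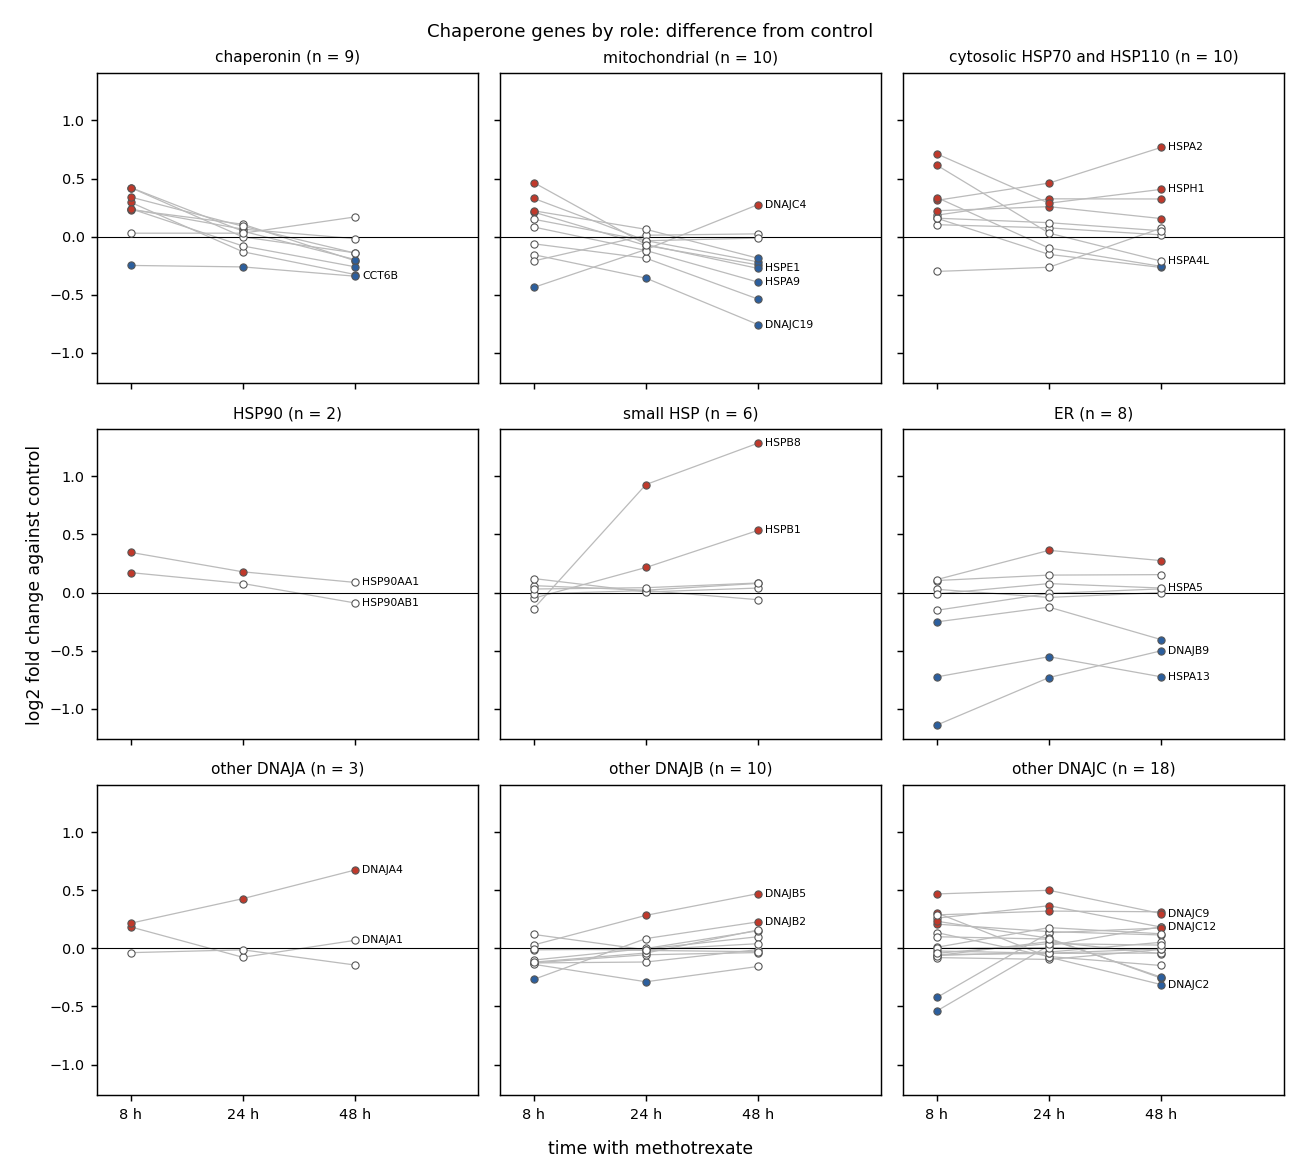
Difference from control (log2, vertical axis) of the 76 chaperone genes at 8, 24 and 48 h, in panels by role, 1 point per gene and time, filled red where called higher, filled blue where called lower and open where not called. The chaperonin points lie mostly above 0 at 8 h and below 0 at 48 h, HSPB8 reaches 1.29 at 48 h, and DNAJB9 lies at -1.14 at 8 h.

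**Figure D2:**
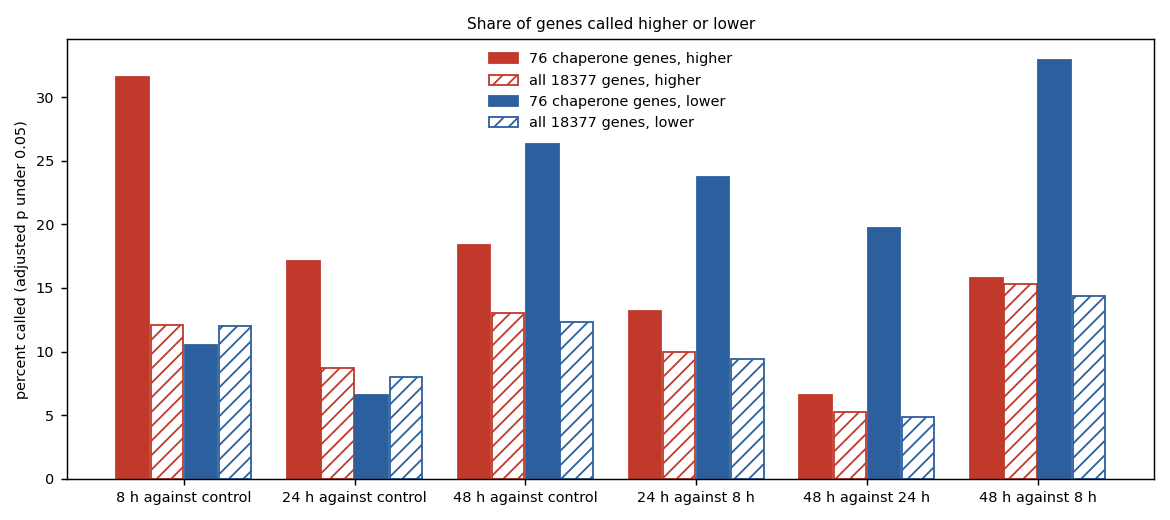
Percentage of genes called higher or lower in each comparison, for the 76 chaperones and for all 18377 genes. At 8 h against control 31.6% of chaperones and 12.1% of all genes were called higher, and at 48 h against 8 h 32.9% of chaperones and 14.4% of all genes were called lower.

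The median SD between replicates of a member lay between 0.0625 (24 h group) and 0.0716 (48 h group), and the SE of a member's difference was 0.045 to 0.114. The 48 h replicate 3 array stood apart from its group, with a weight of 0.199 in limma's array weighting. Leaving it out moved the members called from 34 to 35 for 48 h against control and from 37 to 39 for 48 h against 8 h. Over all genes the counts went from 4649 to 4439 and from 5464 to 5756. In these bulk samples fewer cells of a kind and less RNA per cell cannot be told apart. Of the 10 colon epithelial markers 2, 3 and 1 rose at 8, 24 and 48 h and none fell, while 0 of 6 fibroblast and 0 of 4 leukocyte markers were called by limma at these times. Among all genes 12.1%, 8.69% and 13% rose, and 24.2%, 16.7% and 25.3% were called in either direction. These marker lists are too short to be set against those shares. At an unadjusted p under 0.05 the fibroblast markers gave 0, 1 and 0 and the leukocyte markers 0, 0 and 1 at 8, 24 and 48 h. Their levels cannot be read from centred values.

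Of the HSP110 and HSP70 members of the cytosol, 5 of 10 rose at 8 h and 0 fell, where 12.1% and 12% of all genes did. The largest rise of all members was that of HSPH1, the HSP110 that resets HSP70. Its values were 0.71, 0.69 and 0.67 at 8 h, against 0.04, 0.00 and -0.10 in control, then 0.24, 0.36 and 0.21 at 24 h and 0.46, 0.44 and 0.26 at 48 h. Every 8 h array lay above all others, and the 24 and 48 h arrays overlapped each other above control. HSPH1 rose 1.64-fold at 8 h (log2 difference 0.71, SE 0.06, n = 3 per group, limma adjusted p = 4.08e-06) and was still higher by 0.29 at 24 h (0.0064) and 0.41 at 48 h (0.000335). It fell by 0.42 between 8 and 24 h (adjusted p = 0.000367).

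The HSP110 relatives HSPA4 and HSPA4L rose at 8 h and did not stay high. HSPA4L read 0.70, 0.49 and 0.51 at 8 h, against 0.04, 0.00 and -0.18 in control. At 24 h it read -0.11, 0.11 and -0.05 and at 48 h -0.09, -0.21 and -0.46. The 8 h arrays lay above all others, and the later arrays overlapped control. HSPA4L was 1.53-fold higher at 8 h (0.62, SE 0.10, adjusted p = 0.000401) and fell by 0.83 from 8 to 48 h (2.31e-05). HSPA4 read 0.40, 0.24 and 0.27 at 8 h and -0.24, -0.26 and -0.37 at 48 h, against 0.00, 0.01 and -0.11 in control. Its 8 h arrays were above and its 48 h arrays below every control array, with differences of 0.34 (adjusted p = 0.000734) and -0.26 (0.00468) from control and of -0.59 between 48 and 8 h (4.62e-06).

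HSPA8, the constitutive HSP70 of the cytosol, was higher at all times. It read 0.17, 0.24 and 0.29 at 8 h, 0.26, 0.26 and 0.28 at 24 h and 0.15, 0.23 and 0.12 at 48 h, against -0.01, 0.00 and 0.04 in control. All 9 treated arrays lay above the control arrays. The 8 h arrays overlapped those of both later times, and every 24 h array lay above every 48 h array. The rises were 0.22, 0.26 and 0.16 (adjusted p = 0.00402, 0.0023 and 0.0301). The last was not called without control replicate 1 (0.0953), control replicate 2 (0.0881) or 48 h replicate 2 (0.124), with each array centred (0.0508), and when control and 48 h alone were fitted (0.08).

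HSPA2, an HSP70 known for its role in sperm formation, was higher at each time. It read -0.08, 0.00 and 0.05 in control, 0.35, 0.23 and 0.33 at 8 h, 0.52, 0.37 and 0.46 at 24 h and 0.81, 0.79 and 0.68 at 48 h. No group overlapped another. It was 1.7-fold higher than control at 48 h (0.77, SE 0.06, adjusted p = 8.64e-07), and the step from 24 to 48 h was 0.31 (0.00522), while that from 8 to 24 h was 0.15 (0.106) and was not called. HSPA12A, a distant HSP70 relative, rose by 0.33 at 24 h (adjusted p = 0.00493) and 0.32 at 48 h (0.00313). HSPA14, a ribosome-linked HSP70, fell by 0.26 at 48 h (0.00841).

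The classic stress-inducible HSP70 genes HSPA1A and HSPA1B are near-identical, and 5 probe sets were assigned to both, so they are outside the 76. Their mean read -0.01, 0.05 and -0.03 in control, 0.24, 0.18 and 0.10 at 8 h, -0.08, -0.10 and 0.04 at 24 h and 0.39, 0.34 and 0.56 at 48 h. The 48 h arrays lay above all others. Over the 5 probe sets, tested among all 28869, the 48 h difference from control was 0.42 to 0.43 (adjusted p = 0.000141 to 0.00155), and the 8 h difference of 0.15 to 0.18 was not called (0.0754 to 0.132). These probe sets cannot tell the 2 genes apart.

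Both cytosolic HSP90 genes rose at 8 h. HSP90AA1, the stress-inducible form, read 0.30, 0.33 and 0.39 at 8 h, 0.17, 0.11 and 0.24 at 24 h and 0.10, 0.08 and 0.07 at 48 h, against 0.00, 0.01 and -0.02 in control. The 4 groups did not overlap, in the order 8 h, 24 h, 48 h, control. HSP90AA1 rose by 0.35 at 8 h (SE 0.05, adjusted p = 0.000114) and 0.18 at 24 h (0.017), was not called at 48 h (0.09, 0.211) and fell by 0.26 from 8 to 48 h (0.000702). The 24 h rise was not called without control replicate 3 (0.052), 24 h replicate 1 (0.0518) or 24 h replicate 3 (0.088). HSP90AB1, the constitutive form, rose by 0.17 at 8 h (0.0172), which was not called without control replicate 1 (0.0626), 8 h replicate 2 (0.0503) or 8 h replicate 3 (0.0712), and fell by 0.26 from 8 to 48 h (0.000797). The arrays also carry HSP90 pseudogenes, 11 of which were left out, and how far their RNA reaches the probes of the 2 genes was not tested.

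**Figure D3:**
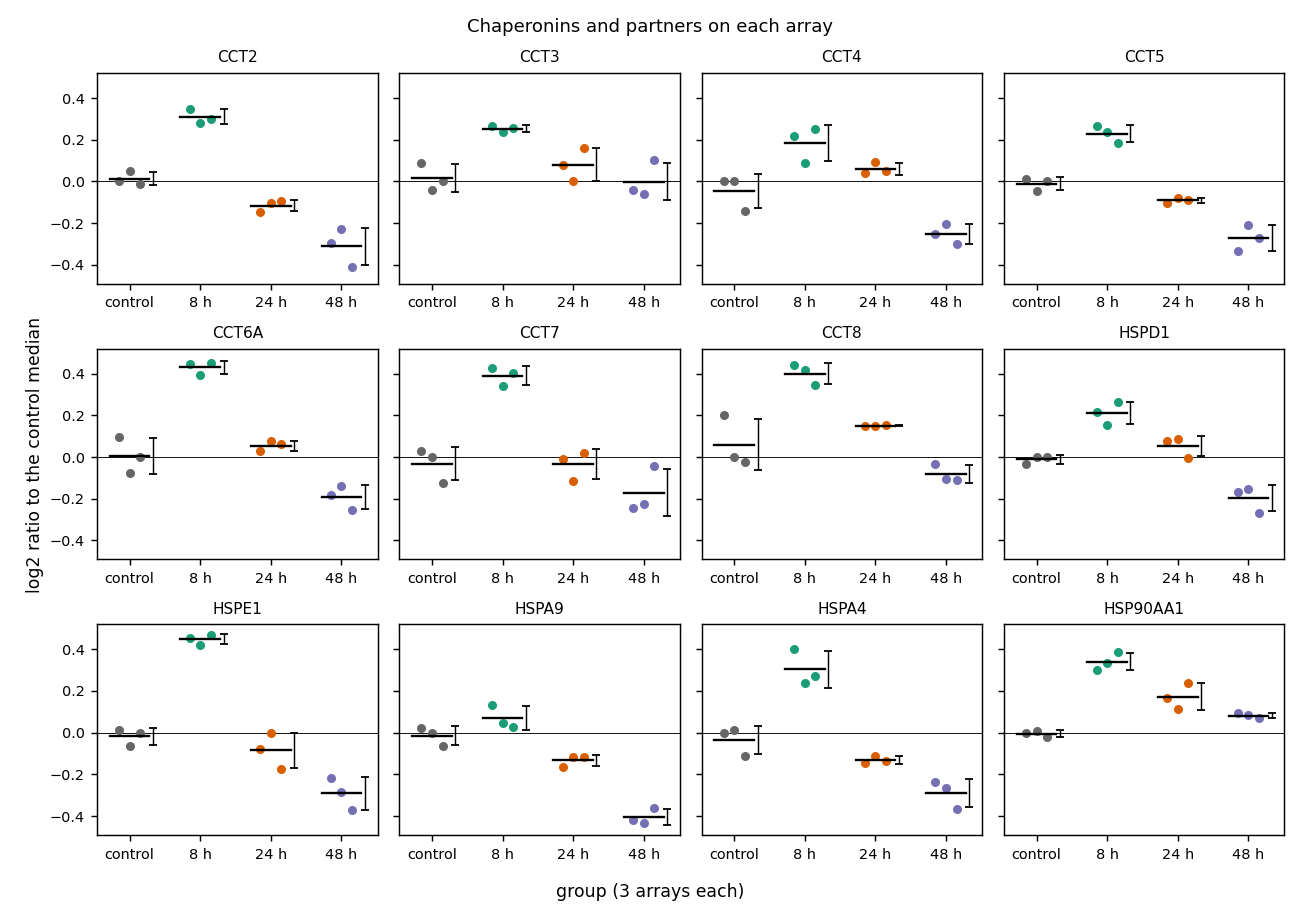
Log2 ratio to the control median (vertical axis) of 12 chaperones on each of the 12 arrays, with groups on the horizontal axis, points for arrays, a horizontal bar for the group mean and an error bar for the SD. HSPE1 lies at 0.42 to 0.47 at 8 h and at -0.37 to -0.22 at 48 h, and CCT2 at 0.28 to 0.35 and -0.41 to -0.23.

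The chaperonin CCT folds actin and tubulin in the cytosol. Its 7 ring subunits among the members, CCT2, CCT3, CCT4, CCT5, CCT6A, CCT7 and CCT8, all rose at 8 h, with a median difference of 0.30 against 0.02 over all genes. None was called at 24 h (median 0.05). At 48 h 4 of 7 fell (median -0.20), and all 7 were lower than at 8 h (median -0.50). The share called higher at 8 h stands beside a background of 12.1%. The shares called lower at 48 h, against control and against 8 h, stand beside 12.3% and 14.4%.

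CCT2 read 0.00, 0.05 and -0.01 in control, 0.35, 0.28 and 0.30 at 8 h, -0.15, -0.10 and -0.10 at 24 h and -0.30, -0.23 and -0.41 at 48 h. Its groups did not overlap, with 8 h above and both later times below control. The differences were 0.30 at 8 h (SE 0.05, adjusted p = 0.0009), -0.13 at 24 h (0.113) and -0.33 at 48 h (0.000396), and -0.62 between 48 and 8 h (1.25e-06). CCT6A read 0.45, 0.39 and 0.45 at 8 h, 0.03, 0.07 and 0.06 at 24 h and -0.18, -0.14 and -0.25 at 48 h, against 0.10, -0.08 and 0.00 in control. It was 1.34-fold higher at 8 h (0.42, adjusted p = 6.61e-05) and overlapped control at 24 h. CCT7 was higher by the same 0.42 at 8 h (0.000351), with -0.14 at 48 h, which was not called (0.151).

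Of the other ring subunits, CCT8 rose by 0.34 at 8 h, CCT5 and CCT3 by 0.24 each and CCT4 by 0.23 (adjusted p = 0.000888, 0.00184, 0.0091 and 0.00939). CCT5 fell by 0.26 (0.00104), CCT4 by 0.21 (0.0173) and CCT6A by 0.20 (0.0138) at 48 h. The fall of CCT4 was no longer called without control replicate 1 (0.0713), control replicate 2 (0.0762) or 48 h replicate 3 (0.0513), and that of CCT6A without control replicate 1 (0.0687) or in a fit of the 2 groups (0.0622). CCT3 and CCT8 were not called at 48 h (-0.02 and -0.14). CCT6B, a testis-enriched paralogue of CCT6A, went the other way at 8 h. It read -0.18, -0.20 and -0.23 at 8 h against 0.18, 0.00 and -0.05 in control, and it was lower by 0.25, 0.26 and 0.34 at the 3 times (adjusted p = 0.00632, 0.0069 and 0.000671). TCP1, the remaining ring subunit, does not carry the CCT symbol. It read 0.56, 0.39 and 0.43 at 8 h against 0.02, 0.00 and -0.10 in control, rose by 0.49 (3.34e-05) and was lower at 24 h than at 8 h by 0.40 (0.000254).

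Prefoldin hands unfolded actin and tubulin to CCT, and phosducin-like proteins regulate it. Of 9 such chaperonin partners, TCP1 included, 4 rose at 8 h, 0 were called at 24 h (1 had an unadjusted p under 0.05) and 2 fell at 48 h. Over all genes 12.1% rose at 8 h, 16.7% were called at 24 h and 12.3% fell at 48 h. PFDN6, a prefoldin subunit, rose by 0.26 at 8 h (adjusted p = 0.00333). PDCL3, a phosducin-like protein, rose by 0.35 at 8 h (0.00555) and was lower by 0.30 at 48 h (0.0139), which was lost without control replicate 1 (0.0652) and with array weights (0.111). VBP1, another prefoldin subunit, was lower by 0.41 at 48 h (0.0124), where replicate 3 read -0.73 and the other arrays -0.24 and -0.25. That call was lost when control and 48 h alone were fitted (0.0514).

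Of the 10 mitochondrial members 4 rose and 1 fell at 8 h, 0 rose and 1 fell at 24 h, and 1 rose and 7 fell at 48 h. Among all genes 12.1%, 8.69% and 13% rose and 12%, 8.02% and 12.3% fell at these times. Only the rises at 8 h (40%) and the falls at 48 h (70%) lay well above those shares. HSPD1 (HSP60) and its lid HSPE1 (HSP10) form the chaperonin of the matrix. HSPE1 read 0.01, -0.06 and 0.00 in control, 0.45, 0.42 and 0.47 at 8 h, -0.08, -0.00 and -0.17 at 24 h and -0.22, -0.28 and -0.37 at 48 h. Its 8 h arrays lay above and its 48 h arrays below all others, and its 24 h arrays overlapped control. HSPE1 rose 1.38-fold at 8 h (0.47, SE 0.06, adjusted p = 4.88e-05), fell by 0.27 at 48 h (0.00262) and was lower at 48 h than at 8 h by 1.67-fold (-0.74, 6.06e-07).

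HSPD1 read -0.03, 0.00 and 0.00 in control, 0.22, 0.16 and 0.26 at 8 h, 0.08, 0.08 and -0.00 at 24 h and -0.17, -0.15 and -0.27 at 48 h. The 8 h arrays were the highest and the 48 h arrays the lowest, with differences from control of 0.22 (adjusted p = 0.00476) and -0.19 (0.0136). HSPA9, the HSP70 of the matrix, did not differ from control beyond the threshold at 8 h (0.08, 0.263). It read -0.42, -0.43 and -0.36 at 48 h against 0.02, 0.00 and -0.06 in control, a fall by 0.39 (4.86e-05). All its 48 h arrays lay below every other array.

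Among the mitochondrial DNAJ proteins, DNAJA3, a partner of HSPA9, rose by 0.21 at 8 h (adjusted p = 0.0151) and fell by 0.24 at 48 h (0.0064). That rise was not called without control replicate 2 (0.0656), control replicate 3 (0.058) or 8 h replicate 1 (0.0627). DNAJC11, a protein of the cristae junctions, rose by 0.33 (0.000491) and fell by 0.22 (0.00807) at these times. DNAJC19 and DNAJC15, of the import motor at the inner membrane, were not called at 8 h (-0.15 and -0.06). DNAJC19 read -0.37, -0.27 and -0.37 at 24 h and -0.65, -0.77 and -0.79 at 48 h, against 0.07, 0.00 and -0.01 in control. Those 3 groups did not overlap, and it fell by 0.36 at 24 h (0.000894) and 0.76 at 48 h (9.07e-07), 1.69-fold. Its 2 probe sets gave -0.95 and -0.56 at 48 h. DNAJC15 fell by 0.54 at 48 h (0.0003). DNAJC4 ran the other way, with -0.38, -0.48 and -0.37 at 8 h and 0.26, 0.23 and 0.42 at 48 h against -0.07, 0.15 and 0.00 in control. It was lower by 0.44 at 8 h (0.000303) and higher by 0.28 at 48 h (0.00694), and rose by 0.71 between them (3.23e-06).

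Of 10 other mitochondrial chaperones and proteases, 3 rose and 2 fell at 8 h, 1 rose and 1 fell at 24 h, and 0 rose and 6 fell at 48 h. Among all genes 12.1%, 8.69% and 13% rose and 12%, 8.02% and 12.3% fell at these times. The 24 h counts (10% each way) were near the background. GRPEL1, the nucleotide exchange factor of HSPA9, rose by 0.26 at 8 h (adjusted p = 0.00187) and fell by 0.34 at 48 h (0.000186). Its paralogue GRPEL2 was lower at all times, by 0.49, 0.37 and 0.53 (0.000776, 0.00719 and 0.000372). CLPB, a disaggregase, rose by 0.30 at 8 h and 0.32 at 24 h and fell by 0.23 at 48 h (0.00456, 0.0045 and 0.0196). Its 48 h call ended on leaving out control replicate 1 (0.0883) or 48 h replicate 1 (0.074) or 2 (0.0622). The matrix protease LONP1 was lower by 0.29 at 8 h and by 0.29 at 48 h (0.0108 each), and without control replicate 1 neither was called (0.0534 and 0.0552), nor was the second without 48 h replicate 2 (0.0518).

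The small heat shock proteins HSPB8 and HSPB1 were not called at 8 h and rose at both later times. HSPB8, which acts with BAG3 in the selective autophagy of misfolded proteins, read 0.12, 0.00 and -0.03 in control and -0.10, -0.01 and -0.21 at 8 h. It then read 0.92, 0.98 and 0.97 at 24 h and 1.48, 1.29 and 1.18 at 48 h. The 8 h arrays overlapped control, all 24 h arrays lay above these, and all 48 h arrays lay higher still. HSPB8 was 1.9-fold higher than control at 24 h (0.93, SE 0.08, adjusted p = 2.84e-06) and 2.44-fold at 48 h (1.29, 1.00e-07), the only member past 2-fold at 48 h. It rose by 1.07 between 8 and 24 h (1.97e-06) and by 0.36 between 24 and 48 h (0.0102).

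HSPB1 (HSP27), which binds actin as well as unfolded clients, read -0.08, 0.00 and 0.04 in control, -0.09, -0.04 and -0.06 at 8 h, 0.19, 0.18 and 0.24 at 24 h and 0.52, 0.46 and 0.58 at 48 h. As with HSPB8, the later groups did not overlap each other or the earlier ones. HSPB1 rose by 0.22 at 24 h (adjusted p = 0.00921) and by 0.53 at 48 h (5.19e-06). Of the 6 small heat shock proteins, HSPB3, HSPB6, HSPB7 and HSPB9 were called in none of the 6 comparisons.

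**Figure D4:**
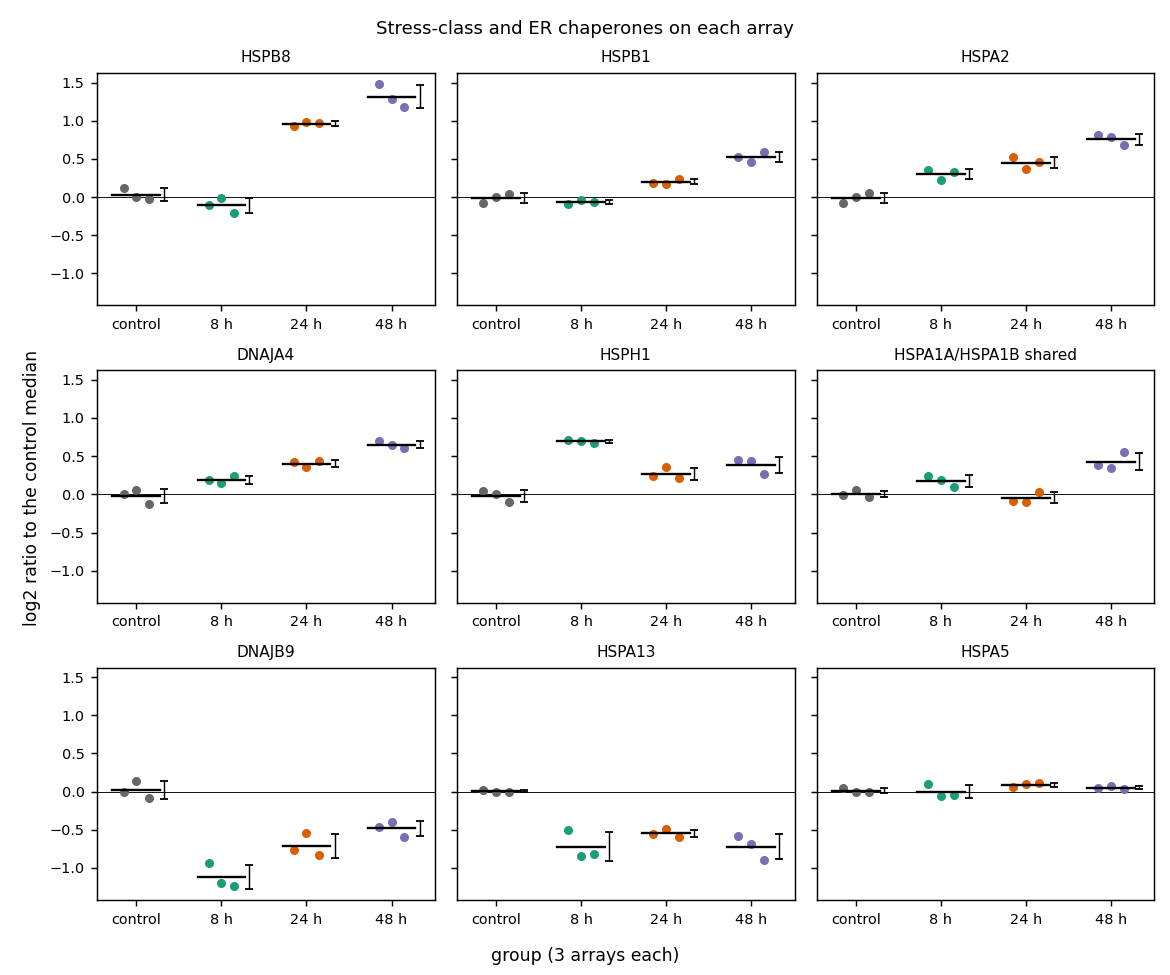
Log2 ratio to the control median (vertical axis) of HSPB8, HSPB1, HSPA2, DNAJA4, HSPH1, DNAJB9, HSPA13 and HSPA5 on each of the 12 arrays. A further panel shows the mean of the probe sets shared by HSPA1A and HSPA1B, which are outside the members. Points stand for arrays, a horizontal bar for the group mean and an error bar for the SD. HSPB8 lies at 0.92 to 0.98 at 24 h and 1.18 to 1.48 at 48 h, and DNAJB9 at -1.23 to -0.94 at 8 h.

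In the ER, 0 of 8 members rose and 3 fell at 8 h, 1 rose and 2 fell at 24 h, and 1 rose and 3 fell at 48 h. Among all genes 12.1%, 8.69% and 13% rose and 12%, 8.02% and 12.3% fell at these times. The rises (0%, 12.5% and 12.5%) were thus near or below the background. DNAJB9 (ERdj4), which restrains the stress sensor IRE1, had the largest fall of all members. It read -0.94, -1.19 and -1.23 at 8 h, -0.76, -0.54 and -0.83 at 24 h and -0.46, -0.40 and -0.59 at 48 h, against 0.00, 0.14 and -0.08 in control. All 9 treated arrays lay below control, the 8 h arrays lowest, and the 24 and 48 h arrays overlapped. DNAJB9 was 2.2-fold lower at 8 h (-1.14, SE 0.10, adjusted p = 2.36e-06), and 0.73 (0.000143) and 0.50 (0.00152) lower on the log2 scale at 24 and 48 h. It rose by 0.64 from 8 to 48 h (0.000169).

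HSPA13, a microsomal HSP70 relative, fell and stayed low. It read -0.50, -0.84 and -0.82 at 8 h, -0.55, -0.50 and -0.60 at 24 h and -0.58, -0.69 and -0.90 at 48 h, against 0.02, 0.00 and -0.00 in control. The times overlapped one another, with falls by 0.73, 0.55 and 0.73 (adjusted p = 7.1e-05, 0.000949 and 6.42e-05). DNAJC10 (ERdj5), a disulfide reductase, fell by 0.25 at 8 h (0.0481) and 0.40 at 48 h (0.00327). Its 8 h call was lost in 10 alternatives, among them without any 1 control array (0.0931 to 0.122), without 8 h replicate 2 (0.151) or 3 (0.171), and without any 1 of the 24 h arrays (0.0501 to 0.0628). DNAJC1 (ERdj1), which binds ribosomes at the ER, rose by 0.36 at 24 h (0.00116) and 0.27 at 48 h (0.00483).

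The main ER chaperones were not called in any comparison. HSPA5 (BiP), the ER HSP70 whose promoter is printed above, ranged from -0.06 to 0.11 on the 9 treated arrays and from -0.01 to 0.04 on the control arrays, and HSP90B1 (GRP94) from -0.06 to 0.06 on the treated arrays. Their differences from control were -0.01, 0.08 and 0.04 for HSPA5 and 0.03, -0.04 and -0.00 for HSP90B1 at 8, 24 and 48 h. DNAJB11 and DNAJC3, both HSPA5 partners, were also called in none of the 6 comparisons. That these genes were not called does not show that they were level.

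Of 18 other genes of ER folding and the unfolded protein response, 2 rose and 9 fell at 8 h, 1 rose and 7 fell at 24 h, and 3 rose and 7 fell at 48 h. The shares that fell, 50%, 38.9% and 38.9%, stand beside 12%, 8.02% and 12.3% of all genes. The rises (11.1%, 5.56% and 16.7%) were near or below the background of 12.1%, 8.69% and 13%. HERPUD1, of ER-associated degradation, ranged from -1.06 to -0.96 at 8 h against -0.03 to 0.06 in control, and fell by 1.02, 0.41 and 0.45 at the 3 times (adjusted p = 4.00e-08, 0.000125 and 3.24e-05). The transcription factor XBP1 fell by 0.71, 0.37 and 0.41 (5.61e-07, 0.000176 and 4.96e-05). The sensor kinase EIF2AK3 (PERK) fell by 0.66 at 8 h (8.27e-05). The sensor ATF6 fell by 0.19, 0.33 and 0.52 (0.0479, 0.00337 and 5.32e-05), and its 8 h call was lost without any 1 of the control arrays (0.0536 to 0.14), 8 h replicate 2 (0.157) or 3 (0.136), 24 h replicate 3 (0.0643) or 48 h replicate 1 (0.052) or 2 (0.0544), and with the replicate block (0.051).

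**Figure D5:**
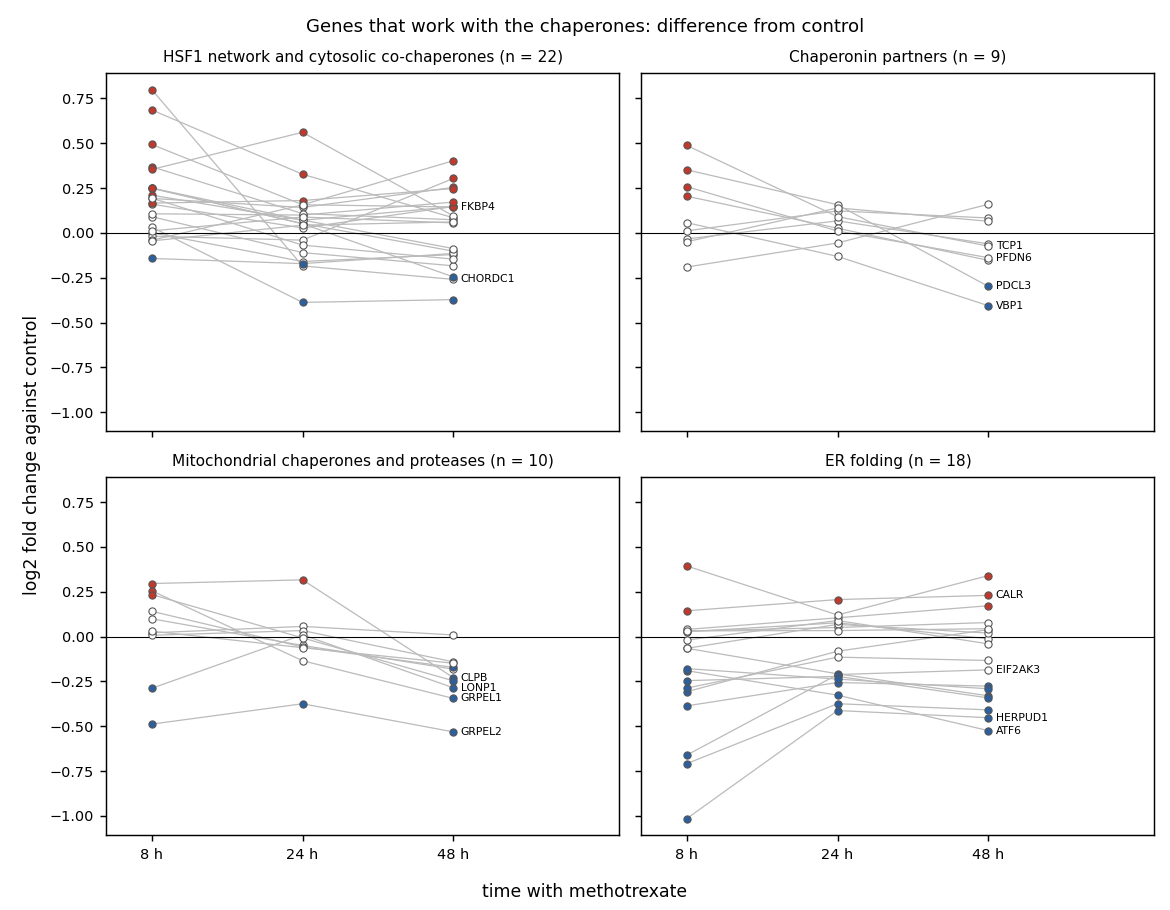
Difference from control (log2, vertical axis) at 8, 24 and 48 h of genes that work with the chaperones, in 4 panels by list, 1 point per gene and time, filled red where called higher, filled blue where called lower and open where not called. CHORDC1 lies at 0.80 at 8 h and HERPUD1 at -1.02.

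HSF1, HSF4, HSBP1, SERPINH1, CRYAB and the cytosolic co-chaperones of HSP70 and HSP90 formed a list of 22 measured genes. At 8 h 11 of them rose and 1 fell (50% and 4.55%), where 12.1% and 12% of all genes did. Of the list 4 rose and 2 fell at 24 h, and 6 rose and 2 fell at 48 h. The medians were 0.18, 0.06 and 0.07 at 8, 24 and 48 h. Among all genes 8.69% rose and 8.02% fell at 24 h, and 13% rose and 12.3% fell at 48 h. CHORDC1, an HSP90 co-chaperone, read 0.88, 0.61 and 0.82 at 8 h against 0.01, 0.00 and -0.10 in control, and rose by 0.80 (adjusted p = 4.56e-05). By 24 h it was 0.98 below its 8 h value (1.37e-05). BAG2, an HSP70 exchange factor, rose by 0.69 at 8 h (5.27e-06) and 0.33 at 24 h (0.00271). FKBP4, an HSP90-binding immunophilin, rose by 0.49 at 8 h (1.23e-05), and SUGT1, another HSP90 partner, by 0.35 at 8 h (0.00389) and 0.56 at 24 h (0.000209). HSF1 itself read 0.13, 0.21 and 0.16 at 8 h, 0.18, 0.14 and 0.22 at 24 h and 0.22, 0.15 and 0.37 at 48 h, against 0.00, 0.02 and -0.01 in control. All treated arrays lay above control, with rises of 0.17, 0.18 and 0.25 (0.0461, 0.0425 and 0.00505). The first was lost without any 1 of 10 arrays (0.0528 to 0.158) and with the replicate block (0.0509), and the second without any 1 of 9 arrays (0.0506 to 0.148). FKBP4 was also called at 24 h (0.16, 0.0475) and 48 h (0.14, 0.0494), but lost both calls without any 1 of the control arrays (0.0989 to 0.12), among others. The list holds both HSF1 targets and genes not known to be.

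DNAJ proteins of the A class bind clients themselves and pass them to HSP70. DNAJA1 rose by 0.18 at 8 h (adjusted p = 0.0152) and was lower by 0.26 at 24 h than at 8 h (0.00211). Its 8 h call ended on leaving out control replicate 3 (0.0512) or 8 h replicate 3 (0.0741). DNAJA4 was higher at each later time, with 0.00, 0.05 and -0.12 in control, 0.19, 0.14 and 0.25 at 8 h, 0.42, 0.35 and 0.43 at 24 h and 0.69, 0.65 and 0.61 at 48 h. None of these groups overlapped. DNAJA4 rose by 0.22, 0.43 and 0.67 (0.0102, 0.000128 and 1.4e-06), and by 0.46 from 8 to 48 h (2.8e-05).

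Of 10 other DNAJB genes, 0 rose and 1 fell at 8 h, 1 rose and 1 fell at 24 h, and 2 rose and 0 fell at 48 h. The shares called, 10%, 20% and 20%, were near or below those of all genes (24.2%, 16.7% and 25.3%). DNAJB1, the main heat-inducible J protein of the cytosol, was not called (-0.13, -0.12 and -0.01, adjusted p = 0.0679, 0.109 and 0.918). DNAJB2, which directs clients to the proteasome, read -0.30, -0.24 and -0.31 at 8 h and 0.21, 0.14 and 0.29 at 48 h, against 0.02, 0.00 and -0.06 in control. Its 8 h arrays lay below and its 48 h arrays above every control array, and it rose by 0.49 between them (2.23e-05). DNAJB5 rose by 0.28 at 24 h (0.00666) and 0.47 at 48 h (9.96e-05). DNAJB14 was lower by 0.29 at 24 h (0.045), which was lost in 8 alternatives, among them without control replicate 1 (0.192) or 2 (0.113), 8 h replicate 3 (0.0619), 24 h replicate 1 (0.142) or 3 (0.193) or 48 h replicate 1 (0.0525) or 2 (0.0595).

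The 18 other DNAJC genes share the J domain and little else. Of these 4 rose and 2 fell at 8 h, 3 rose and 0 fell at 24 h, and 3 rose and 3 fell at 48 h. The shares called, 33.3%, 16.7% and 33.3%, stand beside 24.2%, 16.7% and 25.3% of all genes, so at 24 h the count was at the background. DNAJC9, which handles histones H3 and H4, read 0.50, 0.40 and 0.42 at 8 h, 0.46, 0.46 and 0.51 at 24 h and 0.27, 0.32 and 0.23 at 48 h, against 0.02, 0.00 and -0.09 in control. All treated arrays lay above control, the 48 h arrays lowest among them, and the rises were 0.47, 0.50 and 0.30 (adjusted p = 1.85e-05, 1.51e-05 and 0.000585). DNAJC2 and DNAJC21, J proteins linked to the ribosome and its assembly, rose at 8 h by 0.30 and 0.23 (0.016 and 0.0115) and fell at 48 h by 0.31 and 0.26 (0.0134 and 0.00614). DNAJC2 lost the first call without control replicate 3 (0.0678) or 8 h replicate 3 (0.0543). Its second call was lost without control replicate 1 (0.0552) or 2 (0.0548) and in a fit of control and 48 h alone (0.056). DNAJC21 lost its 8 h call without control replicate 3 (0.0533).

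DNAJC12, a co-chaperone of aromatic amino acid hydroxylases, read -0.48, -0.65 and -0.69 at 8 h and 0.16, 0.10 and 0.09 at 48 h, against 0.00, 0.04 and -0.25 in control. It was 1.45-fold lower at 8 h (-0.54, SE 0.08, adjusted p = 0.000197) and higher at 48 h than at 8 h by 0.72 (1.03e-05). DNAJC18 fell by 0.42 at 8 h (0.000115) and rose by 0.60 from 8 to 48 h (3.78e-06). Its rise of 0.18 over control at 48 h (0.0356) was lost without any 1 of the control arrays (0.0533 to 0.126) and without 48 h replicate 1 (0.115) or 3 (0.0503). The same call was lost in a fit of control and 48 h alone (0.0512). DNAJC7, which links HSP70 and HSP90, fell by 0.25 at 48 h (0.022), where its arrays read -0.16, -0.11 and -0.44. That fall was lost without control replicate 1 (0.0875) or 2 (0.0561) and in a fit of control and 48 h alone (0.0896). The calls of DNAJC17 at 24 h (0.37, 0.0225) and of DNAJC8, linked to splicing, at 24 h (0.32, 0.0448) and 48 h (0.31, 0.0349) were each lost when single arrays were left out (highest adjusted p = 0.111, 0.157 and 0.11).

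In all, 28 of 76 were called in none of the 6 comparisons, and their largest difference from control was 0.208 on the log2 scale. How many of all genes were called in none was not counted. Not being called does not show that a gene was level. Besides the ER and small heat shock proteins named above, the uncalled members included HSPA6, DNAJB1, DNAJB4, DNAJA2 and the clathrin-uncoating partner DNAJC6. DNAJB6, which prevents aggregation, and HSPA1L were called only at 48 h against 8 h, where they were higher by 0.28 and 0.37, and DNAJC24, of diphthamide synthesis, was lower there by 0.28. The call of HSPA1L was lost without 8 h replicate 2 (0.0516) or 48 h replicate 1 (0.0642), and that of DNAJC24 without 8 h replicate 1 (0.0724) or 3 (0.0717) or 48 h replicate 3 (0.0554) and when those groups alone were fitted (0.0695).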

How the data were processed

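RNA of 12 samples was hybridised to 1-colour Affymetrix arrays of whole transcripts. The deposited values are log2 values, 1 per probe set and array. Per the submitters' processing notes the method was RMA (background correction, normalization across arrays, probe summary) and the build hg19, neither with a version. In these values the control median was 0 in each of the 28869 probe sets. How they were centred is not stated in the labels, and base 2 was taken from RMA. Signal over background is therefore unknown, no filter on low values could be set, and the number of arrays limits the precision.

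Of the probe sets 19310 named a single gene, 1752 several and 7807 none here. A gene's value was the mean of its single-gene probe sets, since the brightest, first planned, cannot be found without levels. Of the 76 members 74 had 1 probe set. Groups and replicates came from the sample titles, and no array was left out.

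All genes were fitted in limma 3.58.1 (R 4.3.3) by lmFit, contrasts.fit and eBayes, with group means as coefficients (8 residual and 4.71 prior degrees of freedom) and 6 comparisons. Tests were two-sided, with Benjamini-Hochberg adjustment over 18377 genes and calls at 0.05. The comparison of 48 h with 8 h was added after the data were seen. The code was tested on simulated data. The members, lists and naming rule were chosen with earlier results of these data known. The rule named a set of key members whatever their p, then the 8 largest called rises and falls against control, the 5 largest each way between successive times, any called member of a role with fewer than 3 named, and up to 4 called genes of each partner list. HSF1, HSPA1L, DNAJB6, DNAJC24 and the uncalled members listed by name were added after their values were seen. Alternatives were a replicate block, array weights, centring each array, a robust prior, fits of 2 groups, each probe set alone, stricter thresholds and leaving out each array. Figures were drawn in matplotlib 3.10.9 (Python 3.11.15).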

Additional observations from a re-analysis of the deposited data

Results flagged for a closer look

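For 14 members the difference from control was called in opposite directions at 8 h and 48 h. They were picked by those calls, which fixes the direction of the change from 8 to 48 h, so its values are given as a description. How many of all genes did the same was not counted, so the 14 cannot be set against a background. CCT4, CCT6A, DNAJA3, DNAJC2, DNAJC18 and DNAJC21 each lost at least 1 of these calls in some alternatives, as given above.

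Among chaperonin subunits higher at 8 h and lower at 48 h, the change from 8 to 48 h was -0.62 on the log2 scale (SE 0.05) for CCT2, -0.62 (SE 0.05) for CCT6A, -0.50 (SE 0.05) for CCT5 and -0.44 (SE 0.06) for CCT4. In the mitochondrion HSPE1 changed by -0.74 (SE 0.06), DNAJC11 by -0.55 (SE 0.05), DNAJA3 by -0.45 (SE 0.06) and HSPD1 by -0.41 (SE 0.05). HSPA4 changed by -0.59 (SE 0.06), and the ribosome-linked DNAJC2 and DNAJC21 by -0.62 (SE 0.08) and -0.49 (SE 0.06). DNAJC4, DNAJC18 and DNAJB2 were lower at 8 h and higher at 48 h, and changed by 0.71 (SE 0.07), 0.60 (SE 0.06) and 0.49 (SE 0.06).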

How the results depend on the processing

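No called value reversed under the alternatives run, which covered the counts of members, the named members, the named partner genes and the shared HSPA1A and HSPA1B probe sets (the last 2 added after the data were seen). An added condition of at least a 1.5-fold change left 4 members called at 8 h, 2 at 24 h and 5 at 48 h against control, 1 at 24 h against 8 h, 0 at 48 h against 24 h and 12 at 48 h against 8 h. Of all 18377 genes it left 598, 442 and 688 against control, and 435, 136 and 1033 in the other comparisons, in that order. Array weights gave 29 at 24 h against control and 37 at 48 h against 24 h, where the latter was 12 in a fit of only those groups and 8 at an adjusted p under 0.01. Over all genes these settings gave 6079, 5901, 1022 and 819, in the same order. The cause was not tested. Leaving out single arrays gave 28 to 35 members at 8 h, 14 to 20 at 24 h and 27 to 35 at 48 h against control, 25 to 32 at 24 h against 8 h, 13 to 21 at 48 h against 24 h, 36 to 39 at 48 h against 8 h, and 42 to 49 in the F test. Over all genes the ranges were 3403 to 5161, 2102 to 3938 and 3704 to 4749 against control. In the other comparisons they were 2726 to 4294, 1103 to 2149 and 4726 to 5756, and 6261 to 7720 in the F test. With the replicate number as a block, 34, 17 and 35 members were called against control, 28, 22 and 38 in the other comparisons and 47 in the F test. Over all genes the block gave 4718, 3390 and 5006 against control, 3823, 2119 and 5712 in the others and 7548 in the F test. Same-numbered arrays were not taken as pairs: their residual correlations ran from -0.452 to 0.472, with 11 of 18 over 0.1, and 6 of 12 arrays correlated best with their own number. All 6 pairs of replicate 3 were above 0 (0.0243 to 0.458). Of 165 called values of named members, 134 kept their call in all alternatives other than the stricter thresholds, and of 123 uncalled values 46 were called in at least one. Of 69 called values of partner genes, HSPA1L, DNAJB6 and DNAJC24, 53 kept their call, and the 5 shared HSPA1A and HSPA1B probe sets kept theirs at 48 h against control. Array weights accounted for most calls gained (44 values). No filter on low values was run, since levels were lost in the centring, and signal over background is unknown.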
